A study of Mus musculus with 36 samples.

Results

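The liver makes most of the proteins that clot blood, dissolve clots and coat microbes with complement. A list of 38 mouse genes for such proteins, chosen by symbol, was followed here, and 37 of the 38 were found among 23102 genes on the arrays; Klkb1 was not found and was left out. Each gene's level is the mean of its probe sets that name 1 gene alone, as log2 signal of Affymetrix mouse gene arrays normalized by the authors with RMA, a standard array method. Changes are differences of these levels, and ± gives their standard error. The 37 genes have 510 probe sets, between 6 and 36 per gene with a median of 12.

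Livers came from female C57BL/6 mice aged 10 to 12 weeks, either Dpt-null (KO), which lack dermatopontin, a small protein of the extracellular matrix, or wild-type (WT) littermates. Carbon tetrachloride (CCl4), which hepatocytes convert to a toxic radical, was given subcutaneously (3 injections weekly, 0.1 ml/kg), with 2% CCl4 in week 1, 4% in week 2, 5% in week 3, 6% in week 4 and 8% in weeks 5 to 8, and livers were taken 24 hours after the last dose. Control mice received olive oil. The groups are KO after CCl4 (9 libraries), WT after CCl4 (9), KO after oil (10) and WT after oil (8), with 1 liver array per library. The labels do not say how the null allele was made or whether libraries came from separate litters. The p-values thus set each difference against the spread between these libraries only, pooled over all groups in the fit.

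Clotting is a chain of proteases. Factors made with vitamin K (F2, F7, F9, F10) cut one another until thrombin, the active form of F2, turns fibrinogen into fibrin, which is then crosslinked; antithrombin (Serpinc1) and protein C (Proc) hold the chain back, and plasmin, made from plasminogen (Plg), dissolves the clot. Complement works in a like way: mannose-binding lectins and their proteases, or the alternative pathway around C3 and Cfb, activate C3, and C5 (Hc) to C9 then assemble a pore in the target membrane. Loss of these proteins from plasma is a known sign of failing liver synthesis. Because the samples are whole liver, fewer hepatocytes and less RNA per hepatocyte cannot be told apart.

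Several libraries stood apart from their labels or groups, and calls are given from all 36 libraries and without the libraries set apart. Dpt itself ran from 3.0 to 3.86 in KO livers after CCl4 and from 3.07 to 3.87 in 9 of the 10 KO livers after oil, against 5.59 to 6.48 in WT livers after oil, but the library labelled KO oil 10 read 7.4 and the library labelled WT CCl4 1 read 3.18. A pair of CCl4 libraries was poor in hepatocyte RNA: the mean of the 10 hepatocyte markers measured was 7.09 in KO CCl4 5 and 7.13 in WT CCl4 3, while the median library stood at 9.57 in KO livers and 9.64 in WT livers after CCl4. In 6 libraries labelled female (3 KO oil and 3 WT oil), Y-linked genes were expressed (list mean 6.09 to 6.40, against at most 3.06 in all others). Xist, the RNA that silences an X chromosome in females, read 2.94 to 4.45 in these 6 and at least 9.29 in every other library. Together these are 10 libraries, and 26 remain: 8 KO CCl4, 7 WT CCl4, 6 KO oil and 5 WT oil. A further marker check showed pancreas, skeletal muscle or fat markers raised in 7 libraries, of which 5 are WT CCl4. The pancreatic mean reached 11.46 in 1 of them, against at most 3.63 in WT oil. Of these libraries WT CCl4 4, 5, 8 and 9 remain among the 26, while no KO CCl4 library of the 26 was raised in this way. The part of this in differences between WT and KO values after CCl4 was not tested.

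The promoter windows of 3 members are shown for later reference, because F7 and F13b had the largest falls after CCl4 in their role groups and Fga was not called. They are RefSeq windows on GRCm38.p6 running from 250 bases before to 50 after the start of the transcript, written 5′ to 3′ along the gene's strand. Capitals mark matches on either strand to the letters GTTAATNAT (a core of the site of HNF1, a transcription factor of hepatocytes) or TTGCNNAA (a core of the site of C/EBP factors, which drive many liver genes).
F7, chr8:13025784-13026083, plus strand: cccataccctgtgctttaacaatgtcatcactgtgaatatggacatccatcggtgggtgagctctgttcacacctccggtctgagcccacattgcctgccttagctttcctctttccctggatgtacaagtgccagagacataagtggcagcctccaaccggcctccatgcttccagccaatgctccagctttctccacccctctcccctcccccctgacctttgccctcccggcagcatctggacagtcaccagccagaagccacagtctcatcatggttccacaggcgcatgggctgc
F13b, chr1:139501457-139501756, plus strand: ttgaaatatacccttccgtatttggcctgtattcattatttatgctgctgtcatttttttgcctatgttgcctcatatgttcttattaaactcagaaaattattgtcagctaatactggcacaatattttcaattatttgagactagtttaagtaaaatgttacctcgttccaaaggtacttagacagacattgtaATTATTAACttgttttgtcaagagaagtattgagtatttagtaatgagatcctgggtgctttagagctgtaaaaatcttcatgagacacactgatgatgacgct
Fga, chr3:83025903-83026202, plus strand: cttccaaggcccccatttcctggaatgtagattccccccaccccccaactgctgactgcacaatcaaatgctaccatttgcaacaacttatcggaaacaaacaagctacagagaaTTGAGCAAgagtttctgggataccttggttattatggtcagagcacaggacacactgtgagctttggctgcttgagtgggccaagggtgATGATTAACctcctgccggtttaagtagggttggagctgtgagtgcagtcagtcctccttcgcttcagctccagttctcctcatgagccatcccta
RefSeq windows matched 29 of the 37 members by symbol. The HNF1 letters occurred in 3 of these 29 (10.3%: Fga, F13b and Hc), against 0.94% of the windows of 27025 genes. The C/EBP letters occurred in 10 of 29 (34.5%), against 12.2% of all genes, and the HNF4 letters CAAAGTCCA in 0 of 29 and 0.56% of all. In F13b the HNF1 letters lie at bases -54 to -46 from the start, and in Fga at -46 to -38, with the C/EBP letters at -135 to -128. These are matches of letters, not binding sites, and the window of F7 holds none.

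The mean of all 37 genes lay between 6.0 and 9.49 in KO livers after CCl4 and between 5.92 and 9.57 in WT livers after CCl4, against 9.12 to 9.82 in KO oil and 9.5 to 9.88 in WT oil. The low ends belong to KO CCl4 5 and WT CCl4 3.

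**Figure D1:**
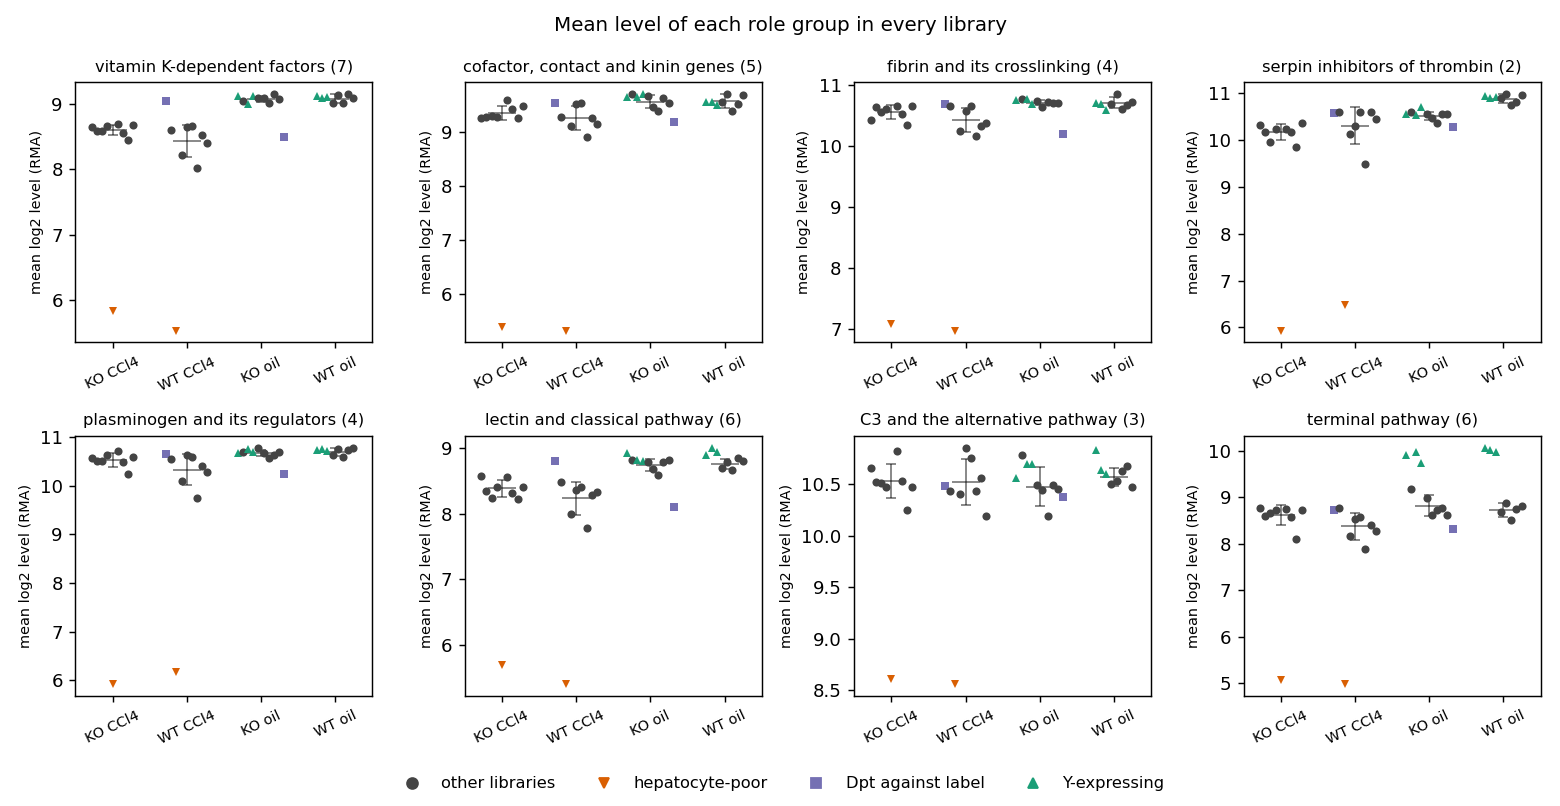
Mean log2 level (RMA, vertical axis) of the genes of each of 8 role groups in every library, with the number of genes in brackets; groups run KO CCl4, WT CCl4, KO oil, WT oil, symbols mark the libraries that stand apart, and bars are the mean and SD of the other libraries. The 2 hepatocyte-poor libraries lie far below the rest in all 8 groups, for example at 5.84 (KO CCl4 5) and 5.53 (WT CCl4 3) for the vitamin K-dependent factors.

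The same 2 libraries were high in markers of other tissues: fat markers averaged 9.06 in KO CCl4 5 and muscle markers 10.0 in WT CCl4 3, against group medians of 4.43 and 3.65; their part in the members' values was not tested. In both the members were low, but not evenly. The difference from the median of the other libraries of the group had a median of -4.06 log2 units in KO CCl4 5 and -4.03 in WT CCl4 3, against -0.01 and -0.06 over all genes. It exceeded 3 log2 units down in 28 and 27 of 37 members, and in 1.48% and 1.38% of all genes. F9, the protease whose loss causes haemophilia B, was lowest in this respect, at 4.3 in KO CCl4 5 (5.04 below the median of the others) and 4.21 in WT CCl4 3 (5.25 below). Only 5 members stayed within 1.5 log2 units of their groups in both libraries: C2, C3, C4b, C6 and Pros1. C2 and C6 were already low in the other libraries, with medians of 6.54 and 6.33 in KO CCl4 and 6.32 and 5.86 in WT CCl4. The array medians were 4.11 to 4.38. The part of these low levels was not tested. C3, the central complement protein, read 11.97 in KO CCl4 5 and 11.76 in WT CCl4 3. Protein S (Pros1), a cofactor of protein C, read 7.76 and 6.91. C3 lies near the top of the array's scale (highest value 13.66), where signals can compress. The part of this in its values was not tested. Fgb, a fibrinogen chain with medians of 11.95 (KO CCl4) and 11.8 (WT CCl4) in the other libraries, differed by -3.0 in KO CCl4 5 and -2.97 in WT CCl4 3.

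After CCl4, 19 of 37 members fell in WT livers and 13 fell in KO livers when the 10 libraries were left out, and 1 (C8a) rose, in KO. A member is called here when limma's Benjamini-Hochberg adjusted p over all 23102 genes is under 0.05. All genes fell in 10.7% of cases in WT livers and 12.1% in KO livers in that fit, and rose in 13.4% and 15%; 0 members rose in WT livers by limma (0 also at an unadjusted p under 0.05). In the fit over all 36 libraries, the called members were 3 lower and 1 higher in KO livers (9.91% and 13.4% of all genes) and 8 lower in WT livers (11.3% lower and 13.2% higher of all genes, with 0 members higher). Without the 2 hepatocyte-poor libraries alone they were 15 lower and 1 higher in KO livers (10.8% and 13.9% of all genes) and 26 lower and 0 higher in WT livers (11.2% and 14%). The median change of the members was -0.24 in KO livers and -0.40 in WT livers in the 26 libraries, -0.69 and -0.86 in all 36, and -0.04 over all genes in each. Each genotype was compared with its own oil group. All 13 members that fell in KO livers in the 26 were among the 19 that fell in WT livers (68.4% of those in WT). The other 6 were C2, Cfb, F12, F2, Hrg and Serpind1, for which a difference between genotypes is tested further on. The same overlap over all genes is not given here, so the overlap is not read as a trait of the members. Without the 2 hepatocyte-poor libraries alone, F2 and F12 were called lower in KO livers too (-0.23 and -0.27, limma adjusted p 0.046 and 0.0343). Plg was not called in KO livers in that fit (adjusted p 0.083).
In all 36 libraries the calls were F7, F13b and C8g lower and C3 higher in KO livers, and F7, F10, C2, C4b, Cfb, C6, C8b and C8g lower in WT livers. Between the fit over all 36 libraries and the fit over the 26, every other call of a member after CCl4 was made only in the 26. The fit without the 2 hepatocyte-poor libraries alone added calls made in neither. These were F2, F12 and Hc lower in KO livers, and F11, Serpinf2, Masp1, Hc and C9 lower in WT livers. That fit keeps the 6 Y-expressing oil libraries, whose Hc and C9 levels lay above those of the 11 oil libraries of the 26. In the 26, which lack them, Hc stood at -0.26 in KO and -0.28 in WT livers, and C9 at -0.15 in WT livers.

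**Figure D2:**
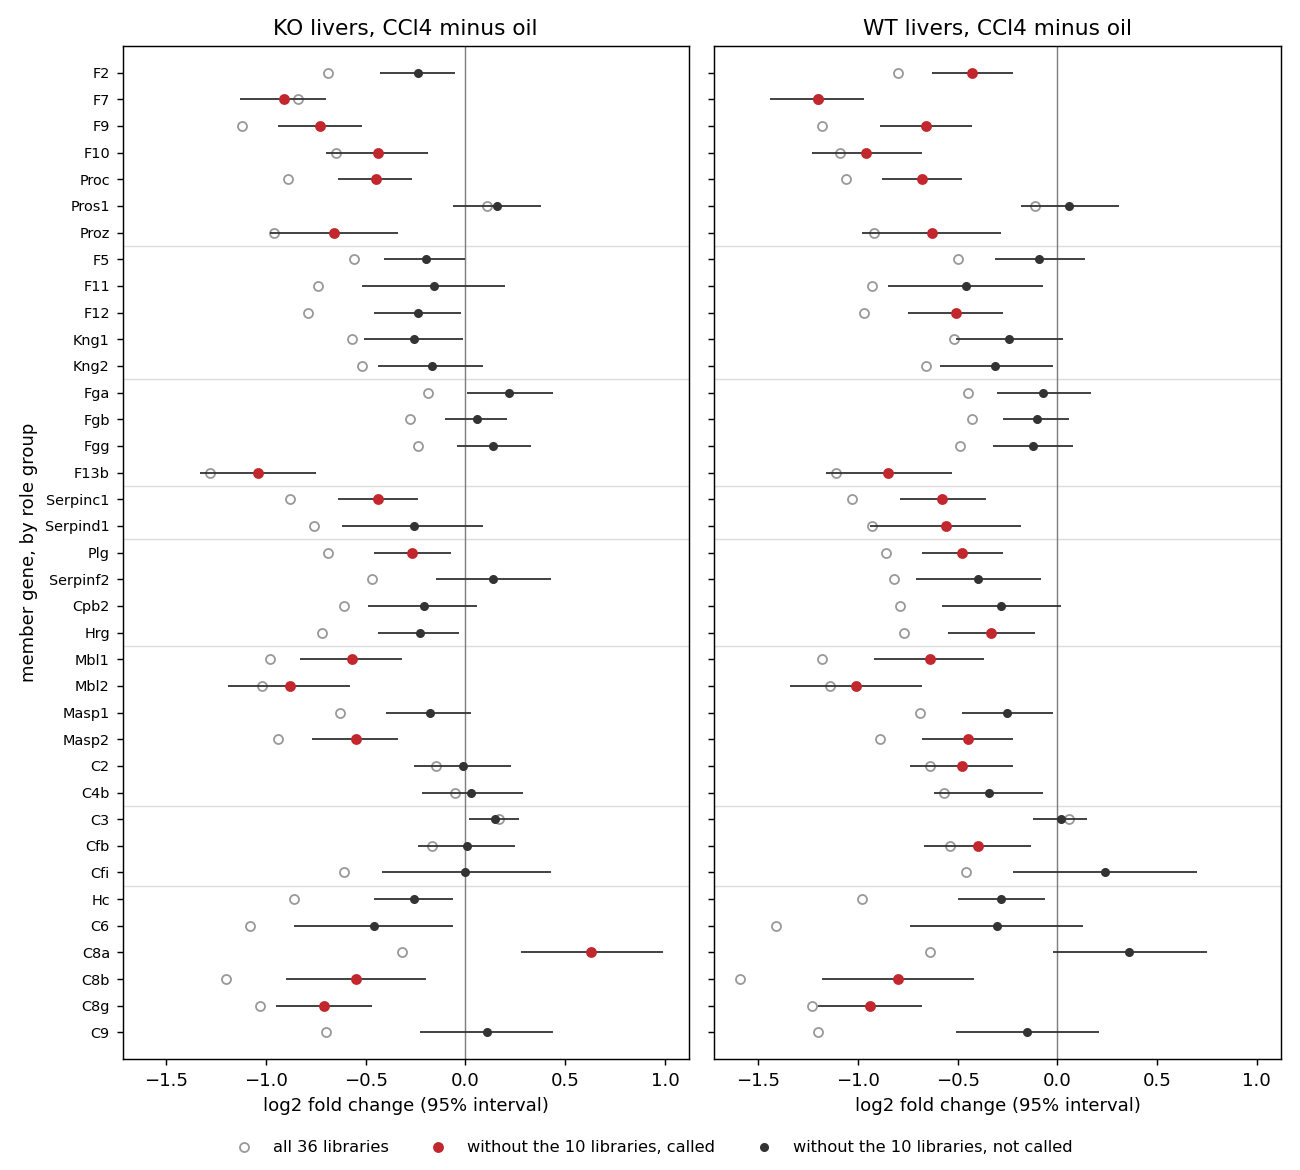
Log2 fold change of each member after CCl4 against oil, KO livers left and WT livers right, with genes in role groups separated by lines. Filled points with 95% intervals are from the 26 libraries (red where called) and open circles from all 36; F7, F13b and Mbl2 are among the lowest filled points in both panels.

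Of the vitamin K-dependent factors, 5 of 7 fell in KO livers and 6 of 7 in WT livers in the 26 libraries, and 1 and 2 of 7 in all 36. F7, which starts clotting together with tissue factor, had levels of 7.44, 8.04 and 8.35 (lowest, median, highest) in KO CCl4 livers, against 7.87, 8.9 and 9.1 in KO oil livers. It had 6.15, 7.9 and 8.75 in WT CCl4 livers, against 8.66, 8.89 and 9.16 in WT oil livers. In the 26 libraries the groups did not overlap: at most 8.35 in KO CCl4 against at least 8.85 in KO oil, and at most 8.0 in WT CCl4 against at least 8.83 in WT oil.
F7 fell by 0.91 ± 0.10 in KO livers (SE, adjusted p 6.5e-08) and by 1.20 ± 0.11 in WT livers (adjusted p 3.56e-09), and was called in both genotypes in all 36 libraries too (-0.84 in KO, -1.20 in WT). Tested one by one in the 26 libraries, all 10 of its probe sets were called lower in both genotypes. In all 36, 9 were called lower in KO livers and 10 in WT livers. The share of all probe sets called after CCl4 is not given here, so such counts describe the probe sets of 1 gene only.
F10, which with F5 makes thrombin, had 6.32, 8.32 and 8.62 in KO CCl4 against 8.49, 8.84 and 8.99 in KO oil, and 5.91, 8.17 and 8.9 in WT CCl4 against 8.9, 8.98 and 9.11 in WT oil. In the 26 libraries the KO groups overlapped (up to 8.62 after CCl4, from 8.49 after oil) and the WT groups did not (up to 8.47 after CCl4, from 8.9 after oil). F10 fell by 0.44 ± 0.12 in KO livers (adjusted p 0.00686) and by 0.96 ± 0.13 in WT livers (adjusted p 3.36e-06). F9 fell by 0.73 ± 0.10 in KO livers and by 0.66 ± 0.11 in WT livers. Protein C (Proc), which inactivates F5, fell by 0.45 ± 0.09 and 0.68 ± 0.10, and protein Z (Proz), a cofactor in the inhibition of F10, by 0.66 ± 0.16 and 0.63 ± 0.17, in KO and WT livers. Prothrombin (F2) fell by 0.43 ± 0.10 in WT livers and changed by -0.24 ± 0.09 in KO livers without being called (adjusted p 0.0561). In all 36 libraries these were larger and not called: F9 stood at -1.12 in KO livers and -1.18 in WT livers (adjusted p 0.13 and 0.125), Proc at -0.89 and -1.06 (0.133 and 0.0838), and Proz at -0.96 and -0.92 (0.07 and 0.0981). F2 stood at -0.80 in WT livers (adjusted p 0.189), and F10 at -0.65 in KO livers (adjusted p 0.0541). Pros1 was not called in either, at 0.16 ± 0.11 in KO livers and 0.06 ± 0.12 in WT livers.

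**Figure D3:**
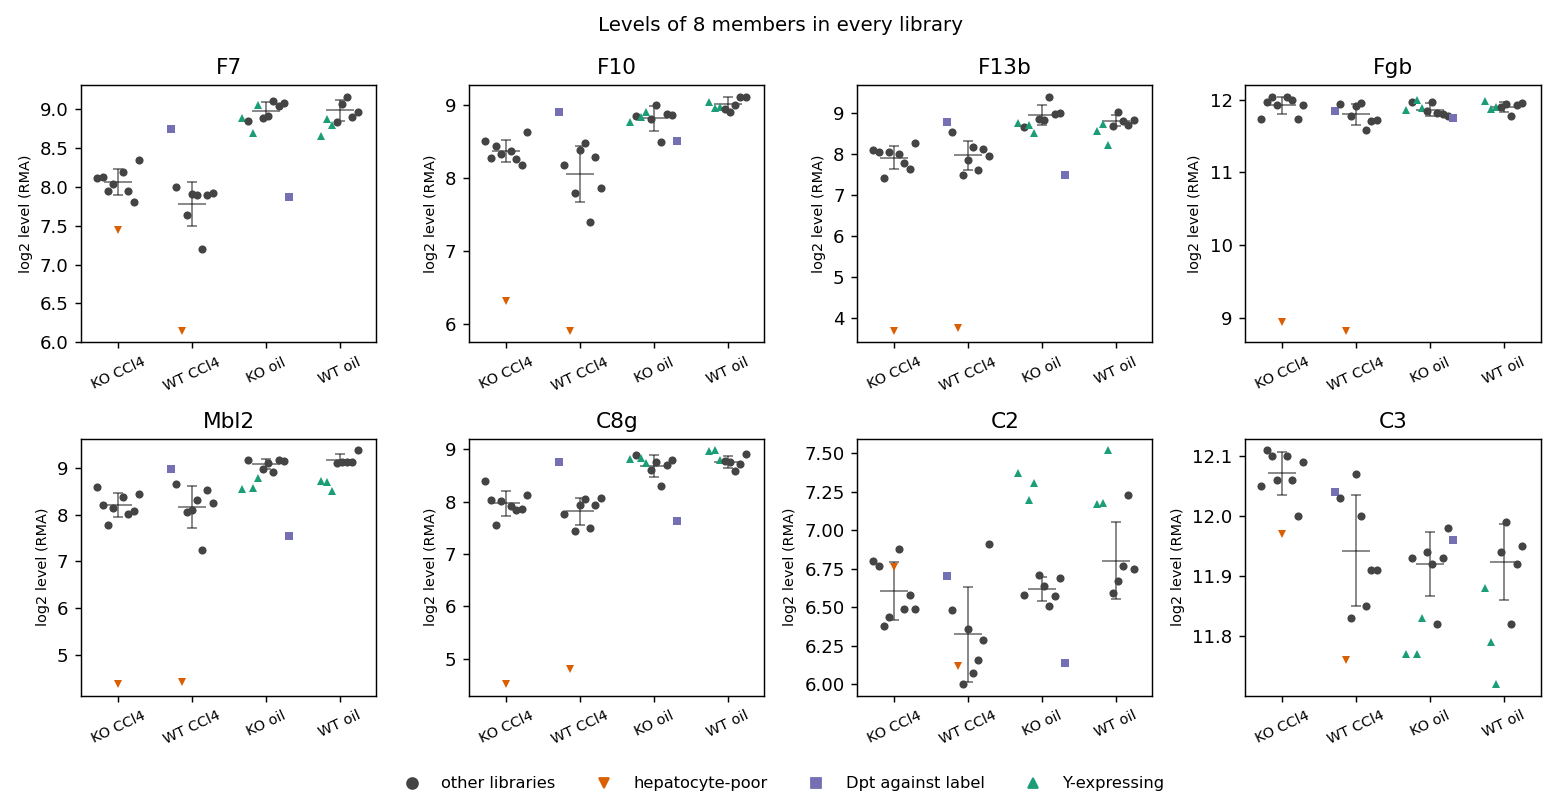
Log2 level (RMA, vertical axis) of 8 members in every library of the KO CCl4, WT CCl4, KO oil and WT oil groups, with symbols for the libraries that stand apart and bars for the mean and SD of the others. F7, F13b, Mbl2 and C8g have lower means after CCl4 than after oil, Fgb differs little outside the 2 hepatocyte-poor libraries, and C3 spans less than 1 log2 unit in all libraries.

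Of the cofactor, contact and kinin genes in the 26 libraries, 0 of 5 fell in KO livers by limma (2, F12 and Kng1, had an unadjusted p under 0.05) and 1 of 5 in WT livers. F12, the contact factor, fell by 0.51 ± 0.12 in WT livers (adjusted p 0.0016) and stood at -0.24 ± 0.11 in KO livers (adjusted p 0.107); in all 36 libraries it stood at -0.97 in WT livers (adjusted p 0.15). F5, the cofactor of F10, stood at -0.20 ± 0.10 and -0.09 ± 0.11, F11 at -0.16 ± 0.18 and -0.46 ± 0.19, in KO and WT livers. The kininogens Kng1 and Kng2 stood at -0.26 and -0.17 in KO livers and at -0.24 and -0.31 in WT livers, and were not called; they are near-identical copies, so their probe sets may share signal.

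The 3 fibrinogen chains were not called, and F13b fell. Fgb, the beta chain of fibrinogen, had 8.95, 11.93 and 12.04 in KO CCl4, against 11.75, 11.85 and 12.0 in KO oil, and 8.83, 11.77 and 11.95 in WT CCl4, against 11.78, 11.91 and 11.98 in WT oil. Its groups overlap once the hepatocyte-poor libraries are set aside. The 3 chains were not called in either genotype: Fga, Fgb and Fgg stood at 0.22, 0.06 and 0.14 in KO livers and at -0.07, -0.10 and -0.12 in WT livers in the 26 libraries. The largest of the SEs was 0.12, and the lowest bound of their 95% intervals was -0.32.
F13b, the carrier subunit of factor XIII, the enzyme that crosslinks fibrin, had 3.7, 8.0 and 8.29 in KO CCl4, against 7.51, 8.8 and 9.41 in KO oil, and 3.76, 7.96 and 8.79 in WT CCl4, against 8.24, 8.73 and 9.03 in WT oil. In the 26 libraries all KO CCl4 values (at most 8.29) lay below all KO oil values (at least 8.67), and all WT CCl4 values (at most 8.55) below all WT oil values (at least 8.69).
It fell by 1.04 ± 0.14 in KO livers (adjusted p 1.42e-06) and by 0.85 ± 0.15 in WT livers (adjusted p 0.000135), with 13 of its 15 probe sets called lower in each in the 26 libraries. In all 36 libraries it was called in KO livers (-1.28, adjusted p 0.0443) and not in WT livers (-1.11, adjusted p 0.0977).

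In the 26 libraries the thrombin inhibitors fell in part. Antithrombin (Serpinc1) fell by 0.44 ± 0.10 in KO livers (adjusted p 0.000786) and by 0.58 ± 0.10 in WT livers (adjusted p 0.00012). Heparin cofactor II (Serpind1) fell by 0.56 ± 0.19 in WT livers (adjusted p 0.0266) and stood at -0.26 ± 0.17 in KO livers. Of the plasminogen genes, Plg fell in both, by 0.27 ± 0.09 in KO livers and 0.48 ± 0.10 in WT livers. The histidine-rich glycoprotein Hrg fell by 0.33 ± 0.11 in WT livers. Antiplasmin (Serpinf2) stood at 0.14 ± 0.14 in KO livers and -0.40 ± 0.15 in WT livers. Cpb2, which removes plasminogen binding sites from fibrin, stood at -0.21 ± 0.14 and -0.28 ± 0.15. Neither was called in the 26.
In all 36 libraries these were not called: Serpinc1 stood at -0.88 in KO livers and -1.03 in WT livers (adjusted p 0.118 and 0.0786), and Plg at -0.69 and -0.86 (0.272 and 0.176). Serpind1 and Hrg stood at -0.93 and -0.77 in WT livers (adjusted p 0.149 and 0.268).

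In the lectin and classical pathway 3 of 6 fell in KO livers and 4 of 6 in WT livers in the 26 libraries. Mbl2, a mannose-binding lectin, had 4.37, 8.14 and 8.6 in KO CCl4, against 7.55, 8.95 and 9.18 in KO oil, and 4.42, 8.24 and 8.97 in WT CCl4, against 8.51, 9.12 and 9.38 in WT oil. The 26 libraries did not overlap between treatments, with KO CCl4 at most 8.6 and KO oil at least 8.92, and WT CCl4 at most 8.66 and WT oil at least 9.11. It fell by 0.88 ± 0.15 in KO livers (adjusted p 2.97e-05) and by 1.01 ± 0.16 in WT livers (adjusted p 2.26e-05). Mbl1 fell by 0.57 ± 0.12 and 0.64 ± 0.13, and Masp2, the protease that cleaves C4 and C2 when lectins bind, by 0.55 ± 0.10 and 0.45 ± 0.11, in KO and WT livers. Masp1 stood at -0.18 and -0.25 and was not called in the 26. In all 36 libraries Mbl2 stood at -1.02 in KO livers and -1.14 in WT livers (adjusted p 0.084 and 0.0651), Mbl1 at -0.98 and -1.18 (0.101 and 0.0569) and Masp2 at -0.94 and -0.89 (0.131 and 0.166), with none of them called.
C2 and C4b, which together form the C3 convertase of this pathway, were not called in KO livers (-0.01 ± 0.12 and 0.03 ± 0.13). In WT livers C2 fell by 0.48 ± 0.13 (adjusted p 0.00656), and C4b stood at -0.34 ± 0.14 (adjusted p 0.0652); in all 36 libraries both were called in WT livers (-0.64 and -0.57). C4b shares much of its sequence with C4a, so its value is uncertain.
C3 had 11.97, 12.06 and 12.11 in KO CCl4, against 11.77, 11.92 and 11.98 in KO oil, and 11.76, 11.91 and 12.07 in WT CCl4, against 11.72, 11.9 and 11.99 in WT oil. It rose by 0.17 ± 0.05 in KO livers in all 36 libraries (adjusted p 0.00959) and stood at 0.15 ± 0.06 in the 26 (adjusted p 0.0702). In WT livers it stood at 0.02 ± 0.07. Cfb, the protease of the alternative pathway, fell by 0.40 ± 0.13 in WT livers (adjusted p 0.0238) and stood at 0.01 ± 0.12 in KO livers. Cfi, which cleaves C3b, was not called in either.

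Of the terminal pathway genes, whose products build the pore, 2 of 6 fell and 1 rose in KO livers, and 2 of 6 fell in WT livers, in the 26 libraries. C8g, a subunit of C8 of the lipocalin family, had 4.51, 7.92 and 8.39 in KO CCl4, against 7.63, 8.75 and 8.89 in KO oil, and 4.8, 7.94 and 8.75 in WT CCl4, against 8.59, 8.79 and 8.98 in WT oil. It fell by 0.71 ± 0.12 in KO livers (adjusted p 2.67e-05) and by 0.94 ± 0.13 in WT livers (adjusted p 2.31e-06), and was called in both in all 36 libraries. Its KO groups overlapped in the 26 (up to 8.39 after CCl4, from 8.29 after oil), and its WT groups did not (up to 8.07 after CCl4, from 8.59 after oil). C8b, the beta subunit, fell by 0.55 ± 0.17 in KO livers and 0.80 ± 0.18 in WT livers; in all 36 libraries it stood at -1.20 in KO livers (adjusted p 0.0747) and was called in WT livers (-1.59, adjusted p 0.0242).
C8a, the alpha subunit, had 4.97, 9.4 and 9.65 in KO CCl4 against 8.36, 9.18 and 10.33 in KO oil. It rose by 0.63 ± 0.17 in KO livers in the 26 libraries (adjusted p 0.00621), with 7 of its 16 probe sets called higher, while in all 36 it stood at -0.32 ± 0.50, so the direction turns with the libraries used. In WT livers it stood at 0.36 ± 0.19 in the 26. C6 had -0.46 ± 0.20 in KO livers and -0.30 ± 0.21 in WT livers and was not called in the 26, whereas in all 36 it was called in WT livers (-1.41, adjusted p 0.0272). C9 stood at 0.11 ± 0.16 and -0.15 ± 0.18, and Hc at -0.26 ± 0.10 and -0.28 ± 0.11.

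In 6 of 37 members the 6 Y-expressing oil libraries did not overlap the 11 oil libraries that are in the 26: 5 members lay above and 1 below. Over all genes 0.532% lay above and 0.463% below in this way. C6 lay between 8.74 and 9.39 in the Y-expressing libraries, against 6.02 to 7.05 in the other 11. C8a lay between 9.98 and 10.33 against 8.22 to 9.34, C8b between 10.1 and 10.47 against 8.88 to 9.82, and C9 between 9.96 and 10.46 against 8.74 to 9.56. Hc lay between 10.79 and 11.09 against 10.28 to 10.63, and Mbl2, the only member lower in all of them, between 8.51 and 8.79 against 8.92 to 9.38. The other 31 members overlapped. These 6 are 3 of 10 KO oil and 3 of 8 WT oil libraries and there are none among the CCl4 libraries, so they enter the oil means alone. The libraries were split by Y-linked level, not by a label, and no test was made.

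**Figure D4:**
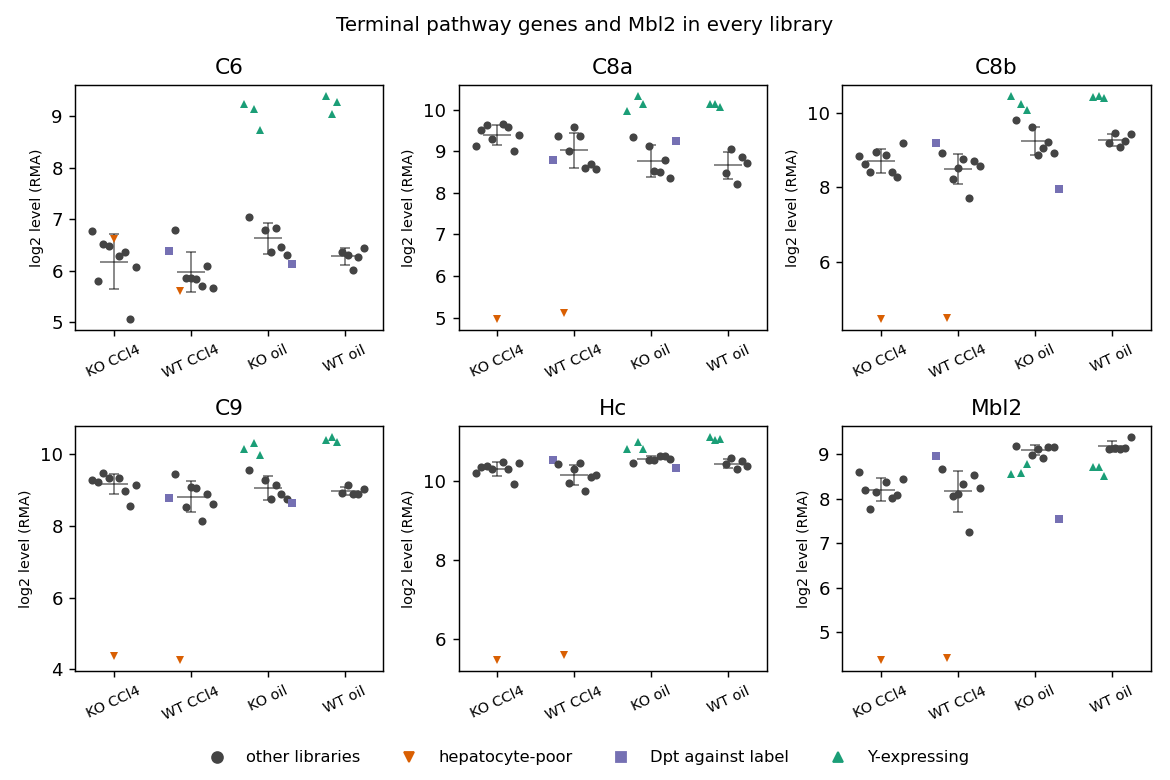
Log2 level (RMA, vertical axis) of C6, C8a, C8b, C9, Hc and Mbl2 in every library of the KO CCl4, WT CCl4, KO oil and WT oil groups, with bars for the mean and SD of the libraries drawn as circles. The Y-expressing oil libraries (triangles) lie above the circles of the oil groups for C6, C8a, C8b, C9 and Hc, and below them for Mbl2.

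Between genotypes, 1 member was called: Serpinc1, lower in KO livers. In the 26 libraries it was called after CCl4 (0.156% of all genes called in either direction) and after oil (0.039%). After CCl4 in the 26, 13 members (35.1%), 12 of them higher in KO, had an unadjusted limma p under 0.05, against 9.58% of all genes. The libraries WT CCl4 4, 5, 8 and 9, raised in markers of other tissues, are among these, and their part was not tested. In all 36 libraries 0 members were called by limma after CCl4 (0.0563% of genes) and 0 after oil (0.0346%). At an unadjusted limma p under 0.05 there were 3 members (8.11%) and 8.44% of genes after CCl4, and 0 members after oil. Serpinc1 had 5.77, 9.74 and 9.93 in KO CCl4, against 6.47, 10.28 and 10.61 in WT CCl4, and 10.07, 10.22 and 10.4 in KO oil, against 10.66, 10.95 and 11.05 in WT oil. After oil all KO livers lay below all WT livers. It fell by 0.55 ± 0.09 after CCl4 (adjusted p 0.005) and by 0.69 ± 0.11 after oil (adjusted p 0.00406) in KO livers relative to WT livers in the 26.
Most of this came from 1 of its 9 probe sets. Its level was 1.47 to 2.35 in KO CCl4 livers, against 2.48 to 6.13 in WT CCl4 livers, where the libraries WT CCl4 3 (2.48) and WT CCl4 1 (2.67) were lowest. After oil it was 1.49 to 2.52 in 9 KO livers and 4.1 in the library labelled KO oil 10, against 5.15 to 7.33 in WT livers. The KO values lie under the array medians of 4.11 to 4.38, where RMA gives no test of signal over background, so the size of the difference is not given as a fold. Tested probe set by probe set over 233753 of them, this one was called lower in KO livers after CCl4 (adjusted p 0.00123) and after oil (adjusted p 2.62e-08) in all 36 libraries, and in the 26 (3.68e-07 and 5.48e-08). Of the 510 probe sets of the members it was the only one called between genotypes, after CCl4 (0.0137% of all probe sets in all 36 libraries, 0.0167% in the 26) and after oil (0.0103% and 0.0145%). The other 8 of Serpinc1 were not called. With the median of a gene's probe sets as its level, in place of the mean, Serpinc1 was not called between genotypes in the 26 libraries and stood at -0.21 after CCl4 (adjusted p 0.674) and -0.16 after oil (adjusted p 0.897); that setting was chosen after seeing the data.
Serpinc1 lies on chromosome 1, as does Dpt, with 41 protein-coding genes between them in RefSeq. F5 lies nearer, with 5 between it and Dpt, and was not called between genotypes (0.01 ± 0.10 after CCl4, 0.12 ± 0.11 after oil). The part of the position in the result was not tested.

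**Figure D5:**
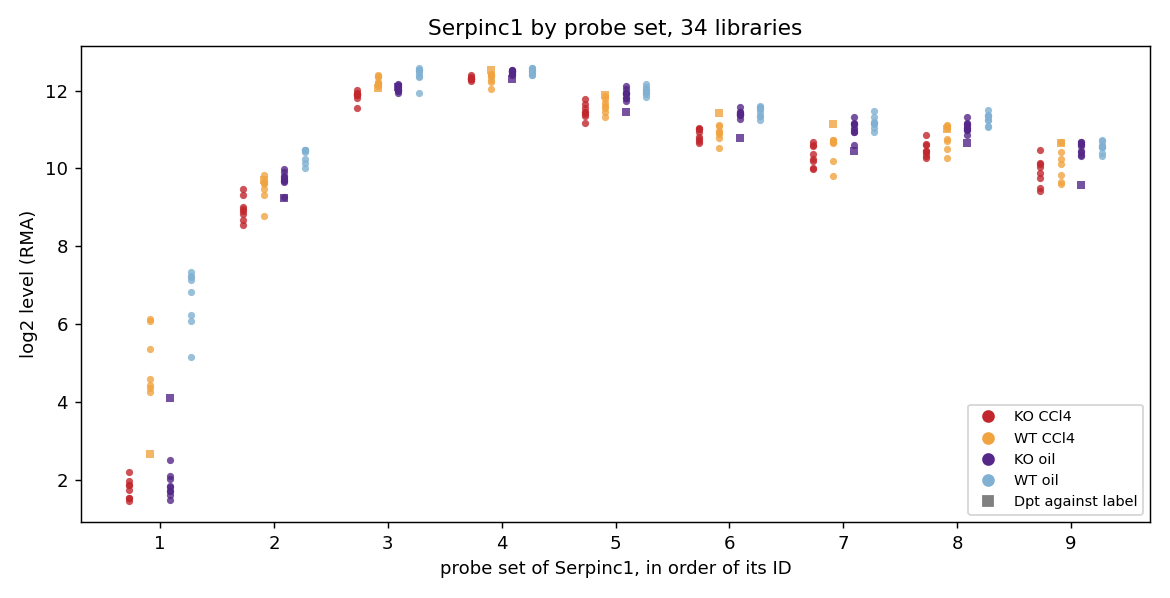
Log2 level (RMA, vertical axis) of the 9 probe sets of Serpinc1, numbered in order of their ID, in 34 libraries (the 2 hepatocyte-poor ones left out), coloured by group with squares for the libraries whose Dpt goes against the label. For the first probe set KO livers after oil lie at 1.49 to 2.52, with 1 at 4.1, and WT livers after oil at 5.15 to 7.33; the other 8 probe sets were not called between genotypes.

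No member was called in the interaction, which subtracts the WT response to CCl4 from the KO response, by limma: 0 of 37 in all 36 libraries (0% of genes called; 2 members and 5.85% of genes at an unadjusted p under 0.05) and 0 of 37 in the 26 (0.00433% of genes; 4 members, or 10.8% of them, and 9.91% of genes unadjusted). The unadjusted share of the members is thus near that of all genes. The 6 members called lower in WT livers alone in the 26 libraries are not shown to differ between genotypes.

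Other genes of the same pathways, taken from lists, moved in the 26 libraries as follows. Of 19 other coagulation and fibrinolysis genes, 11 rose and 2 fell in KO livers, and 11 rose and 3 fell in WT livers. Plat, the tissue plasminogen activator, rose by 2.60 ± 0.14 in KO livers and 2.39 ± 0.15 in WT livers, and Plau, the urokinase activator, by 1.54 ± 0.20 and 1.04 ± 0.22. Thrombomodulin (Thbd), which turns thrombin towards protein C, rose by 1.13 ± 0.13 and 1.05 ± 0.14. Vkorc1, which recycles vitamin K, fell by 0.79 ± 0.16 in WT livers; it was chosen after its values were seen.
Of 20 other complement genes, 8 rose and 4 fell in KO livers, and 5 rose and 6 fell in WT livers. C3ar1, a receptor for a fragment of C3, rose by 2.57 ± 0.16 in KO livers and by 2.05 ± 0.17 in WT livers, and C5ar1, the receptor of C5a, by 1.40 ± 0.18 and 1.39 ± 0.20. C7 rose by 1.06 ± 0.21 and 1.87 ± 0.22. Of 8 acute phase genes, 7 rose in KO livers and 4 in WT livers, with Lcn2 up 3.09 ± 0.18 and 2.65 ± 0.20 and Saa3 up 3.16 ± 0.24 and 2.57 ± 0.26. Of 11 other secretory proteins of hepatocytes, 2 rose and 1 fell in KO livers, and 1 rose and 4 fell in WT livers.
Of 8 hepatocyte regulators, 5 fell in KO livers and 3 in WT livers. Cebpa, the gene of a C/EBP factor, fell by 0.79 ± 0.25 in KO livers and by 1.78 ± 0.27 in WT livers, and Hnf4a by 0.55 ± 0.09 and 0.46 ± 0.09. Of 10 hepatocyte markers 5 fell in each genotype, with a median change of -0.33 in KO livers and -0.42 in WT livers, close to that of the members. Macrophage markers rose in 7 of 7 in KO livers and 6 of 7 in WT livers, with medians of 2.76 and 1.77. Stellate cell markers rose in 4 of 7 in each. In KO livers 2 of 7 fat markers rose and 0 of 9 pancreatic and 0 of 8 muscle markers did; in WT livers 2 of 7 fat, 2 of 9 pancreatic and 2 of 8 muscle markers rose. The part of any of these in the members' change was not tested.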

How the data were processed

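The authors deposited log2 signals per probe set, made with RMA per the submitters' processing notes, which name no further step; the sources used here give no software version, genome build or annotation. Another deposited table has 36 columns whose names match no sample and was not used. Probe sets with a single gene symbol (233753 of 269479) were used; 5139 with several and 30587 with none were not. RefSeq GRCm38.p6 updated 2247 symbols. A gene's level is the mean of its probe sets, with no filter on low values. Array medians lay between 4.11 and 4.38. Precision is limited by the number of arrays.

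Groups come from the labels alone. limma 3.58.1 under R 4.3.3 was fitted to all 36 arrays with 1 mean per group, and p-values were adjusted by Benjamini-Hochberg over 23102 genes (two-sided, called under 0.05). Errors are limma's standard errors. Libraries were set apart where Dpt lay on the wrong side of 5 for the label, hepatocyte markers lay over 1 below the median of all arrays, or Y-linked genes lay above 4.5. No 2 arrays were identical (highest correlation 0.9888). Replicate numbers were shared between groups and were not used to pair the samples. Of same-numbered pairs, 1 of 8 correlated over 0.1 for CCl4 in WT, 3 of 9 in KO, 5 of 8 for genotype after oil and 4 of 9 after CCl4. Pairs with unlike numbers were not set beside them, so this check cannot settle whether the samples were paired. The genes named are all members, up to 4 called genes of each other list by size, and Dpt. Members and lists were chosen with earlier results of these data known. The steps were tested on simulated data. Tables and figures used Python with pandas and numpy. Promoter sequences are RefSeq's. Klkb1 and other genes not found were left out. Alternatives were the probe set summary, a filter, centring, the variance model, the groups in the fit and the libraries left out. The median of probe sets without the 10 libraries was chosen after seeing the data.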

Additional observations from a re-analysis of the deposited data

Results flagged for a closer look

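The 2 hepatocyte-poor libraries were each the lowest of their group, with a gap to the next library past Dixon's limit, in all 8 role groups; chance alone passes that limit in about 1 in 20 groups. They were set apart for low hepatocyte markers, so this restates that choice for other hepatocyte genes, and the 8 groups are not independent. KO CCl4 5 was so for the vitamin K-dependent factors (5.84), cofactor, contact and kinin genes (5.39), fibrin and its crosslinking (7.10), serpin inhibitors of thrombin (5.94), plasminogen and its regulators (5.92), lectin and classical pathway (5.68), C3 and the alternative pathway (8.61) and terminal pathway (5.07). WT CCl4 3 was so for the same groups in that order, at 5.53, 5.33, 6.98, 6.48, 6.17, 5.40, 8.56 and 4.98. Member by member, KO CCl4 5 was such a lowest library for 31 of 37 and WT CCl4 3 for 32 of 37.

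The library labelled KO oil 10, whose Dpt goes against its label, was the lowest of its group in the same way for the vitamin K-dependent factors (8.49), fibrin and its crosslinking (10.19), plasminogen and its regulators (10.24) and the lectin and classical pathway (8.10), and for 10 of 37 members. In this library macrophage markers averaged 8.51, against 5.19 to 5.62 in the other 9 KO oil libraries, stellate markers 7.72 against 5.51 to 6.09, muscle markers 5.97 against 3.5 to 3.84 and mesothelial markers 6.06 against 3.95 to 4.15. Their part in the members' values was not tested. KO oil 7 was so for 2 members. Without KO oil 10, 9 members were called after CCl4 in KO livers in place of 4. The share of all genes called without it is not given here.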

How the results depend on the processing

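Counts of members called for CCl4 against oil depended on the libraries and the gene summary. They pool lower and higher calls. The share of all genes called is given above for all 36 libraries, without the 2 hepatocyte-poor libraries and without the 10. It is not given for the other settings. A change in calls over all genes is thus not told apart from one in the members. In KO livers 4 members were called in all 36 libraries; 0 were called with the highest probe set, 7 with arrays centred on their medians, 14 with array weights, 7 with the replicate block, 9 without the libraries whose Dpt goes against the label, 16 without the 2 hepatocyte-poor libraries, 1 without the Y-expressing libraries, 2 with Y expression as a covariate, 18 without libraries with other tissue markers and 14 without the 10. In WT livers 8 were called; 4 with the highest probe set, 16 with array weights, 26 without the 2 hepatocyte-poor libraries, 3 without the Y-expressing libraries, 5 with Y expression as a covariate, 13 without libraries with other tissue markers and 19 without the 10. With the median of probe sets and without the 10, chosen after seeing the data, 14 were called in KO and 21 in WT livers. KO livers thus had more calls than WT livers without libraries with other tissue markers, and fewer without the 10. Leaving out the libraries with other tissue markers keeps 8 KO CCl4 and 4 WT CCl4 libraries.

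Between genotypes after oil 1 member was called when only the 2 groups were fitted, without the hepatocyte-poor libraries, without libraries with other tissue markers and without the 10; after CCl4 1 was called under the last 3 of these. The cause was not tested. Without the 10, 0.039% of all genes were called after oil and 0.156% after CCl4. Such shares are not given for the other settings. C8a after CCl4 in KO livers turned from -0.32 to 0.63 without the 10 libraries, and to 0.67 with the median of probe sets as well.

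Leaving out 1 library at a time gave 2 to 13 called members in KO livers (13 without WT CCl4 3, and 9 without KO oil 10) and 6 to 21 in WT livers (21 without KO CCl4 5), and 0 for both genotype comparisons and the interaction. The median change ran from -0.77 to -0.23 in KO livers and from -0.97 to -0.45 in WT livers, from -0.35 to 0.46 for KO against WT after CCl4, from -0.10 to -0.01 after oil and from -0.27 to 0.59 for the interaction. Apart from the 7 in KO livers, the replicate block left the counts as they were. These were 8 members in WT livers and 0 for both genotype comparisons and the interaction. Shares of all genes called are not given for it or for leaving out 1 library.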
